A study of Drosophila melanogaster with 3 samples.

Results

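Bound long noncoding RNA promoters are described here: the start sites of Drosophila genes annotated as lncRNA or asRNA (antisense RNA) that lay beside a reproducible binding peak of CG16863. The members were chosen by the binding data themselves. A gene of this class was called bound when the summit of a reproducible peak fell within 500 bp of one of its transcription start sites (TSSs). By this rule 150 of the 2446 lncRNA and asRNA genes annotated on the 6 chromosome arms were bound. Another 459 had a summit within 500 bp in the relaxed list only, a longer list of peaks called with lenient settings on the pooled replicates, and these relaxed-only genes are the comparison group. The peaks come from ChIP-seq of whole Drosophila melanogaster embryos aged 0 to 16 h, of mixed sex. The embryos carried a transgene insertion expressing CG16863 with eGFP, a green fluorescent protein, at its C terminus, and chromatin was sonicated (200 to 800 bp) and precipitated with an antibody against GFP. All 3 samples are biological replicates with that genotype, so no groups are contrasted, and the signal and q values of the peaks are those of the authors. Read depth is unknown from the peak lists. No untagged or input library was compared here, and how far the authors' peak calls correct for a control is unknown. Signal that does not depend on the tagged protein therefore cannot be told apart from binding.

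Long noncoding RNAs are transcripts that are processed much like messenger RNAs but encode no known protein. Some act as RNA molecules, some are precursors of small RNAs such as miRNAs and piRNAs, and many have no known function. Their start sites are often placed beside, opposite or inside protein-coding genes, so that a factor bound at one can equally be bound at the promoter of a neighbour.

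Sequences under the peaks are shown for some of the bound promoters, to let the AT-rich words counted below be seen in place. Each window holds the summit and 50 bp on each side of it, read 5′ to 3′ on the strand of the lncRNA from the RefSeq copy of the dm6 assembly (Release 6). The capitals mark matches, on either strand, to any of 10 AT-rich 8-mers. These 8-mers (TTTAAAAA, AAAAATAA, AAATTAAA, ATTTAAAA, TTAAAAAA, AATTTAAA, ATTTTTAA, AAAATAAA, ATTTTAAA and AAAAAATA) were ranked only on reproducible peaks away from lncRNA and asRNA start sites. The first 7 windows were picked from the named strong promoters because each holds a match, so they do not stand for all members, and the strongest promoter is not among them. The windows of lncRNA:flam and lncRNA:Hsromega, the best known bound genes, were added after the data were seen and hold none. In that order the windows are chrX:12751379-12751479 on the plus strand, chr3R:29214402-29214502 on the plus strand, chr2L:9568679-9568779 on the minus strand, chr2L:15911220-15911320, chr3L:3250177-3250277, chr3L:11405980-11406080, chr3R:25738120-25738220, chrX:21631655-21631755 and chr3R:21296368-21296468, the last 6 all on the plus strand.
lncRNA:CR44619: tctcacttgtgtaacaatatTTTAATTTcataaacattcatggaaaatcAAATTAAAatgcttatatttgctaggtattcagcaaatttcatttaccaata
lncRNA:CR31044: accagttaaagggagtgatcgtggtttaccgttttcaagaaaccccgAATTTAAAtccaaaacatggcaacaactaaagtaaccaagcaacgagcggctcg
lncRNA:CR44149: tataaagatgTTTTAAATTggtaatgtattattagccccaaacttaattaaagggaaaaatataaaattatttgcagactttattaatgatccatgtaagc
lncRNA:CR44867: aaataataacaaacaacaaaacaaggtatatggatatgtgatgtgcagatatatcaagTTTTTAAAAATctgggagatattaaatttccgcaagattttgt
lncRNA:CR43626: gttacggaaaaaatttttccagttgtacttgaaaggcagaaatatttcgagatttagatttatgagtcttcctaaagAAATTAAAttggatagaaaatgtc
lncRNA:CR44363: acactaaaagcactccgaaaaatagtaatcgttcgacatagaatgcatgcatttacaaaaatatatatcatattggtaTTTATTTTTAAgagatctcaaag
lncRNA:CR46102: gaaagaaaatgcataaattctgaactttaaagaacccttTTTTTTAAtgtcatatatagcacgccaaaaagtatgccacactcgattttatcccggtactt
lncRNA:flam: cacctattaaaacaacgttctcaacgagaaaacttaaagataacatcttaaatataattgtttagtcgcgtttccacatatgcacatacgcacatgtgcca
lncRNA:Hsromega: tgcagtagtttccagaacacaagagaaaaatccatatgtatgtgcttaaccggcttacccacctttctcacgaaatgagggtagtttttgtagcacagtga
The GC content of these windows ran from 23.8% in lncRNA:CR44619 and lncRNA:CR44149 to 43.6% in lncRNA:CR31044. At lncRNA:CR44068, the strongest member, whose window is not shown, it was 53.5%, and 11 of the 20 strongest members were below the members' median GC content.

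Of the 609 genes of the class with a relaxed summit, 150 (24.6%) were bound, beside 34.2% of all 7578 genes with a relaxed summit at a TSS. These shares follow from the choice of the members and are a description. The 95% Wilson interval of the class share was 21.4 to 28.2%, and this and the other intervals given here cover counting error only. Protein-coding genes reached 36.4% (2384 of 6553). These shares count genes, and coding genes shared summits with each other more often. The 2384 bound coding genes had 1680 distinct best summits and the 4169 relaxed-only ones 3441. In the class it was 149 for 150 bound genes and 448 for 459 relaxed-only genes. A share per distinct summit was not computed for coding genes. Among genes with 1 TSS, 134 of 558 lncRNA and asRNA genes were bound (24.0%) against 1323 of 3983 coding genes (33.2%). With more than 1 TSS it was 16 of 51 (31.4%) against 1061 of 2570 coding genes (41.3%). The plot of bound shares by gene group sets such shares side by side. The share was 25.5% for genes named lncRNA (114 of 447) and 22.2% for those named asRNA (36 of 162), with intervals that overlapped. Relaxed summits themselves were fewer at the class: 609 of 2446 annotated genes had one (24.9%), compared with 6553 of 13945 coding genes (47.0%).

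**Figure D1:**
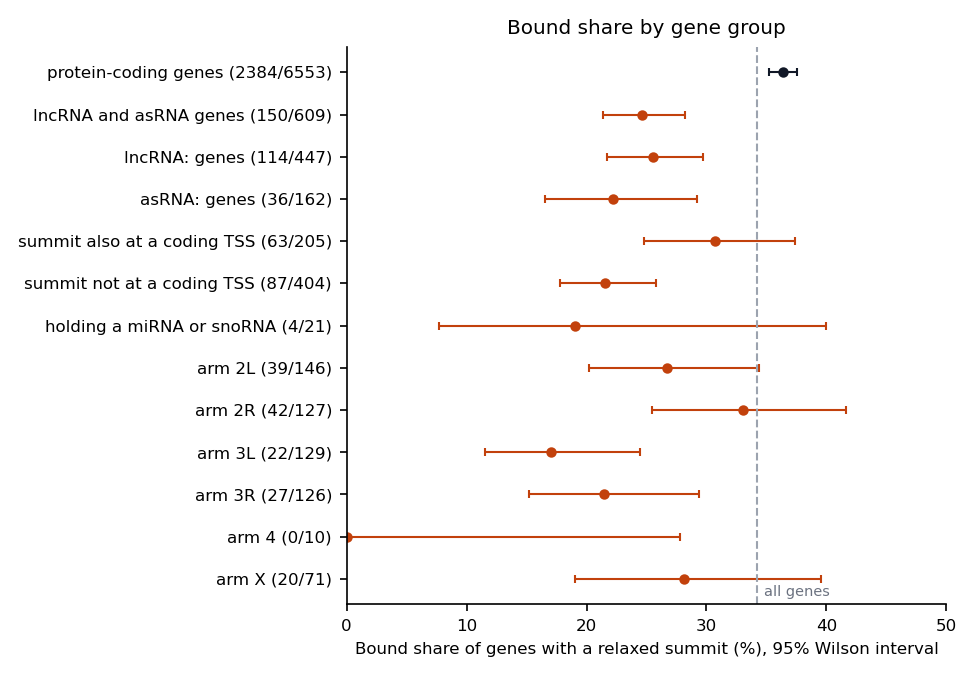
Bound share, in percent of the genes that have a relaxed summit at a TSS, for protein-coding genes (black) and for groups of lncRNA and asRNA genes (orange), with the number bound over the number with a relaxed summit. Bars are 95% Wilson intervals and the dashed line is the share of all genes, 34.2%. The class as a whole sits at 24.6%.

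The strongest promoters of the class were led by lncRNA:CR44068, an intergenic gene on arm 2R (chr2R:8157161-8158260). Signals are given as relative signal, the signal of the replicate's own peak within 100 bp divided by that replicate's median over all 3953 reproducible peaks. The relative signal at lncRNA:CR44068 was 22.8 in replicate 1, 31.8 in replicate 2 and 28.6 in replicate 3 (27.7 ± 4.58, SD, n = 3). No other member came near it in any replicate. Its summit lay 477 bp upstream of the lncRNA but only 30 bp upstream of a start site that Lpin, a phosphatidate phosphatase, and kermit, a PDZ-domain protein, share on the other strand. The next was lncRNA:CR44463 (chr2R:15217995-15218195), with 8.80, 8.02 and 8.65. Here too the summit was on the coding side, 427 bp downstream of the lncRNA's start, beyond the end of this short gene, and 151 bp upstream of mRpL41, which encodes a protein of the mitochondrial ribosome.

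The next 2 promoters had no protein-coding start site nearby. At lncRNA:CR44619 (chrX:12751867-12754571) the relative signal was 7.54, 8.72 and 8.89 in replicates 1 to 3, with the summit 438 bp upstream and 5112 bp from the nearest coding TSS. At lncRNA:CR31840 (chr2L:14023722-14024099) it was 8.79, 8.22 and 7.45, with the summit 22 bp inside the transcript and 2924 bp from the nearest coding TSS. The replicates placed these summits almost identically, at −439, −438 and −437 bp for lncRNA:CR44619 and at 22, 22 and 29 bp for lncRNA:CR31840. The strongest antisense gene, asRNA:CR45928 (chr2R:23850330-23851500), gave 6.48, 6.44 and 6.48. It starts inside ytr on the opposite strand and is head to head with eIF6, a ribosome assembly factor, and its summit was 85 bp upstream of eIF6. The sixth, lncRNA:CR31044 (chr3R:29214562-29219667), gave 6.19, 6.67 and 6.14 with the summit 110 bp upstream.

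Beyond these 6, the other 14 of the 20 strongest promoters ranged from 2.31 to 4.60 in replicate 1, from 2.48 to 5.14 in replicate 2 and from 2.33 to 4.76 in replicate 3. They were, in order, lncRNA:CR44149, lncRNA:CR44810, lncRNA:CR44867, lncRNA:CR43626, lncRNA:CR44363, lncRNA:enrr, lncRNA:CR45668, lncRNA:CR46102, lncRNA:CR44380, asRNA:CR43257, lncRNA:CR44917, lncRNA:CR45168, asRNA:CR45281 and lncRNA:CR45997. All 20 had a peak within 100 bp of the summit in each replicate. Of the 20, 7 shared their summit with a coding TSS and 13 did not, 3 were asRNA genes and 8 were on arm 2R. Among those without a coding TSS, lncRNA:CR45668 (chrX:5882480-5899989) is head to head with Act5C, a cytoplasmic actin gene, and the summit lay 217 bp upstream of the lncRNA and 655 bp upstream of Act5C. The summit at lncRNA:CR44917 (chr2L:21855094-21869759) was 30808 bp from the nearest coding TSS. Within the 20 the SD over the mean was smallest at asRNA:CR45928 (0.00363), lncRNA:CR31044 (0.0463) and lncRNA:CR44463 (0.0491), and largest at lncRNA:enrr (0.181), lncRNA:CR44068 (0.165) and lncRNA:CR44363 (0.146). In all 3 of the most variable promoters replicate 2 was the highest.

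Others of the strong promoters without a coding TSS lay inside or at some distance from coding genes. lncRNA:CR44810 (chr2R:24325027-24330277) gave 4.06, 4.28 and 4.76. Its summit was inside the gene, 164 bp upstream of the nearest of 3 start sites. The summit was 4536 bp from slbo, the C/EBP transcription factor of border cell migration. lncRNA:CR44867 (chr2L:15911691-15912062) starts inside beat-Ib, a gene of the Beat family of axon guidance proteins, on the opposite strand, and gave 4.00, 4.40 and 4.37 with the summit 421 bp upstream. lncRNA:CR46102 (chr3R:25738027-25738689) starts inside LpR2, a lipophorin receptor gene, also on the opposite strand, and gave 3.23, 2.91 and 3.22 with the summit 143 bp downstream. These 3 were each above the median peak in every replicate, at least 2.91 times. lncRNA:CR45997 (chr2R:17262339-17262748) lies within mbl, the muscleblind splicing factor gene, on the same strand, and gave 2.31, 2.52 and 2.55. At lncRNA:CR44363 (chr3L:11405535-11406094), which gave 3.45, 4.25 and 3.24, the summit was 495 bp downstream of the start, near the far edge of the 500 bp window.

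**Figure D2:**
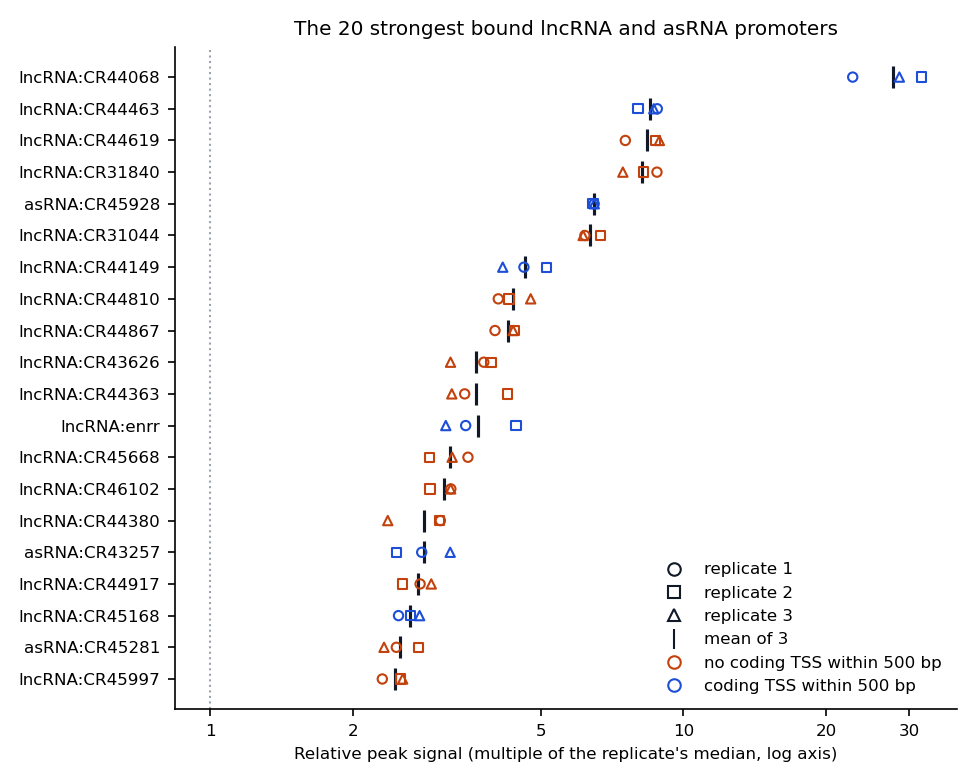
Relative peak signal (log axis) of the 20 lncRNA and asRNA promoters with the best mean rank. Open symbols are the 3 replicates, vertical ticks are means, and colour separates summits with a protein-coding TSS within 500 bp (blue) from those without (orange). The dotted line at 1 is the median reproducible peak of each replicate, and lncRNA:CR44068 stands alone above 20.

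As a set, the bound lncRNA and asRNA promoters were ordinary reproducible peaks in height. The signal chose them, so these levels are a description. Their pooled signal had a median of 184.8 and ran from 108.9 to 5018, beside a median of 175.5 over all reproducible peaks, and 81 of 150 were above that median. Median relative signal at their summits was 1.08, 1.07 and 1.02 in replicates 1 to 3 (1.06 ± 0.0353, SD, n = 3), and at all promoter peaks it was 1.02 ± 0.0115. A peak within 100 bp was present in all 3 replicates for 134 members, in 2 for 14 and in 1 for 2. Those last, named here after their values were seen, were lncRNA:CR43130, with a peak in replicate 2, and lncRNA:CR45645, with one in replicate 3. In replicates 1 to 3 such a peak was present for 143, 145 and 144 of the 150 members. It was absent at 143, 103 and 147 of all 3953 reproducible peaks. When each replicate's own 3953 strongest peaks replaced the reproducible set, 146, 151 and 159 genes of the class were bound, 24.8% ± 1.09 (SD, n = 3) of those with a relaxed summit, against 33.9% ± 1.05 of all genes. Members made up 83.3% ± 0.477 of these genes, and 84.4% ± 3.79 of the members were among them. The class share was below that of all genes in each replicate by its own ranking. The 3 rankings are not independent of the pooled set that chose the members.

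The reproducible set is the pooled list above a single signal value, 108.6, so the members end at a line. Just inside it were lncRNA:CR45539 (108.9), lncRNA:CR45695 (109.1) and lncRNA:CR43928 (109.4). Just outside were lncRNA:CR45291 (107.8) and the divergent pair lncRNA:CR44715 and lncRNA:CR44717, which share 1 summit of signal 106.7. The relaxed-only genes as a whole had a median signal of 52.3 and 41 of 459 had a q value of at most 0.01, whereas all 150 members did. Most of the comparison group therefore consists of weak calls.

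Many of the bound promoters could not be assigned to the noncoding gene alone. The summit of 63 of the 150 (42.0%, with a lower interval bound of 34.4%) was also within 500 bp of a protein-coding TSS, and for the other 87 every TSS in reach belonged to the class. Among relaxed-only genes 142 of 459 shared their summit in this way (30.9%, 26.9 to 35.3%). Seen from the other side, 63 of 205 class genes with a shared summit were bound (30.7%, 24.8 to 37.4%) and 87 of 404 without one (21.5%, 17.8 to 25.8%). Both lay below the 36.4% of coding genes, but the interval of the group with a shared summit includes that share. Head-to-head arrangement, a coding gene starting on the other strand within 1000 bp upstream, was found for 51 of 150 members (34.0%), 120 of 459 relaxed-only genes (26.1%) and 64.7% of bound coding genes.

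The coding partners of the named promoters are given here, with no list or test of their functions. Besides Lpin and kermit, mRpL41 and eIF6, the named strong promoters lay beside elav (lncRNA:enrr), Reg-5 (asRNA:CR43257), brwl (lncRNA:CR44149) and the pair sti, the citron kinase of cytokinesis, and tral, a protein of RNA granules (lncRNA:CR45168). Further down the list, and picked after the values were seen, asRNA:CR42254 shared its summit with BEAF-32, a gene for an insulator protein. There the relative signal was 1.18, 0.907 and 0.956 and the summit was 33 bp upstream of BEAF-32. At lncRNA:CR44966 the partner was RpL22, a protein of the large ribosomal subunit, with 1.41, 1.39 and 1.92. Of the 63 members with a shared summit, 46 were head to head with a coding gene and 27 started inside the very gene they shared the summit with. Median relative signal was 1.09, 1.09 and 1.02 in replicates 1 to 3 at summits without a coding TSS and 1.02, 0.991 and 1.01 at shared ones. The difference was 0.0596 ± 0.0474 (SD, n = 3). Since the same signal chose the members and 3 replicates cannot give an exact p below 0.25, it is a description. Median pooled signal was ordered the other way, 183.9 at members without a coding TSS and 191.5 at shared ones.

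Summits were scattered on both sides of the lncRNA and asRNA start sites, which was not so at coding genes. Of the 150 member summits, 81 (54%) were upstream of the TSS, at a median of −55.5 bp, and 72 were over 250 bp away. Only 28 (18.7%) were within 100 bp, close to the 20.1% of positions that this distance covers in the 500 bp window. At bound coding genes 85.9% of summits were upstream with a median of −126 bp, 37.0% were within 100 bp and 22.9% over 250 bp away. For coding genes with 1 TSS the upstream share was 92.7%, and for those not head to head it was 81.2%. The replicates' own summits gave medians of −70, −57 and −54.5 bp at the members (−60.5 ± 8.32, SD, n = 3), with 54.4% ± 0.549 upstream. Relaxed-only lncRNA and asRNA summits were spread just as evenly, 51.4% upstream with a median of −17 bp, while relaxed-only coding genes had 60.5% upstream and a median of −45 bp. The median of the members changes sign with a window of 1000 bp (56 bp), so it marks no preferred distance.

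At the shared promoters the summit position was also measured from the coding gene. Measured from the nearest coding TSS, 52 of the 63 shared summits were upstream (82.5%, 71.4 to 90.0%), at a median of −154 bp. For the 142 relaxed-only genes with a shared summit 96 were upstream of the coding TSS (67.6%, 59.5 to 74.8%), at a median of −61 bp. From the lncRNA or asRNA TSS of the 63 members, 35 were upstream (55.6%), at a median of −112 bp. The coding TSS was the nearer of both in 37 of 63 members (58.7%) and in 86 of 142 relaxed-only genes (60.6%). At the 87 promoters without a coding TSS 46 summits were upstream (52.9%), with a median of −36 bp. Those 87 summits had a median distance of 2824 bp from the nearest coding TSS, from 514 to 32920 bp, and 14 were more than 10000 bp away. Whether the annotated start of each noncoding transcript is the one used in these embryos was not tested.

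**Figure D3:**
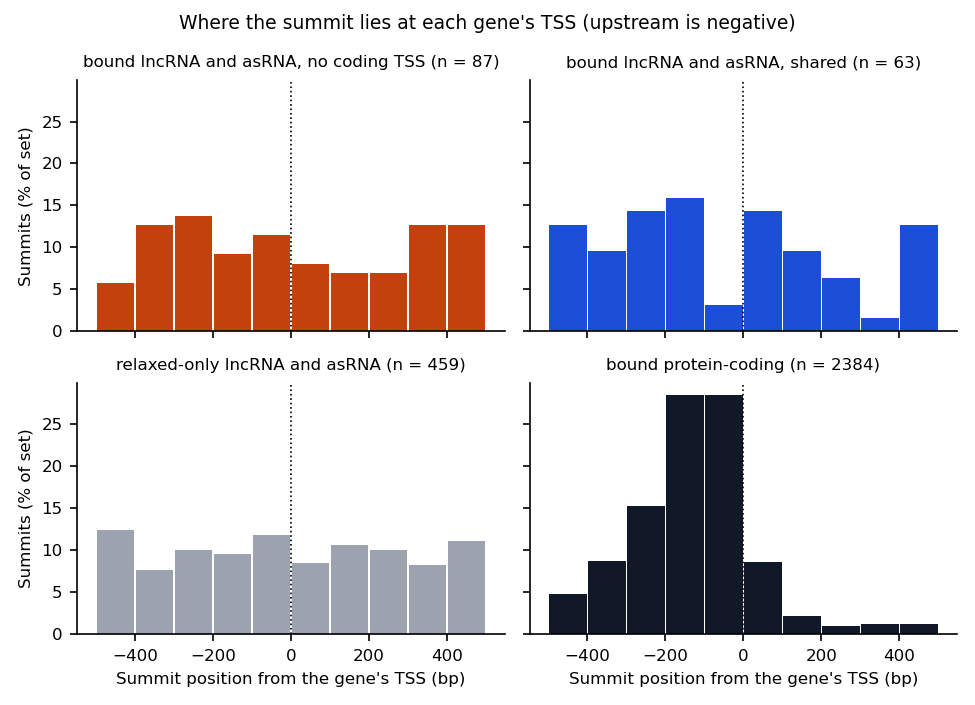
Position of the best summit from the gene's nearest TSS in 100 bp bins, as percent of each set, upstream negative. Bound lncRNA and asRNA genes without (orange) and with (blue) a coding TSS and relaxed-only genes of the class (grey) fill the window on both sides, while bound protein-coding genes (black) pile up in the bins just upstream of the TSS.

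Some lncRNA genes carry a name of their own. Of the 43 genes of the class that carry a name other than a CR number, 15 had a relaxed summit and 5 of these were bound: enrr, flam, Hsromega, TS2 and marge. That is 33.3% (interval 15.2 to 58.3%), beside 24.6% of the class and 34.2% of all genes. lncRNA:flam (chrX:21631891-21790731), the flamenco piRNA cluster that silences gypsy-type transposons in ovarian follicle cells, had a relative signal of 1.35, 1.23 and 1.08. Its summit lay 186 bp upstream of the start of the 158841 bp gene, at −167, −190 and −194 bp in the 3 replicates, and 1557 bp from DIP1. This places a peak of about median height at the promoter end of the cluster. lncRNA:Hsromega (chr3R:21296127-21317836), the heat-shock RNA of the nuclear omega speckles, gave 1.08, 1.15 and 0.788. Its summit was 203 bp upstream of the nearer of its 2 start sites, and therefore inside the longer transcript.

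lncRNA:enrr (chrX:513106-523226) gave 3.47, 4.43 and 3.15. It starts at the same base as elav, the gene of a neuronal RNA-binding protein, so its promoter and that of elav are one and the 253 bp to the summit are the same for both. lncRNA:TS2 gave 0.772, 0.869 and 0.518 and lncRNA:marge 0.685, 0.606 and 0.903, below the median peak in every replicate. The 10 named genes with a relaxed summit only were roX1, noe, osk, iab8, yar, bsAS, TS16, Eig63F-2, TS4 and ASTR. The highest of them was roX1, an RNA of the dosage compensation complex, with a pooled signal of 77.4 at a summit 3 bp upstream, below the line of 108.6. The signal of iab8, a transcript of the bithorax complex, was 62.7, and that of yar, which lies beside yellow, was 60.9. The other 28 named genes, among them roX2, bxd, iab4, let7C, cherub and acal, had no relaxed summit within 500 bp of a TSS.

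**Figure D4:**
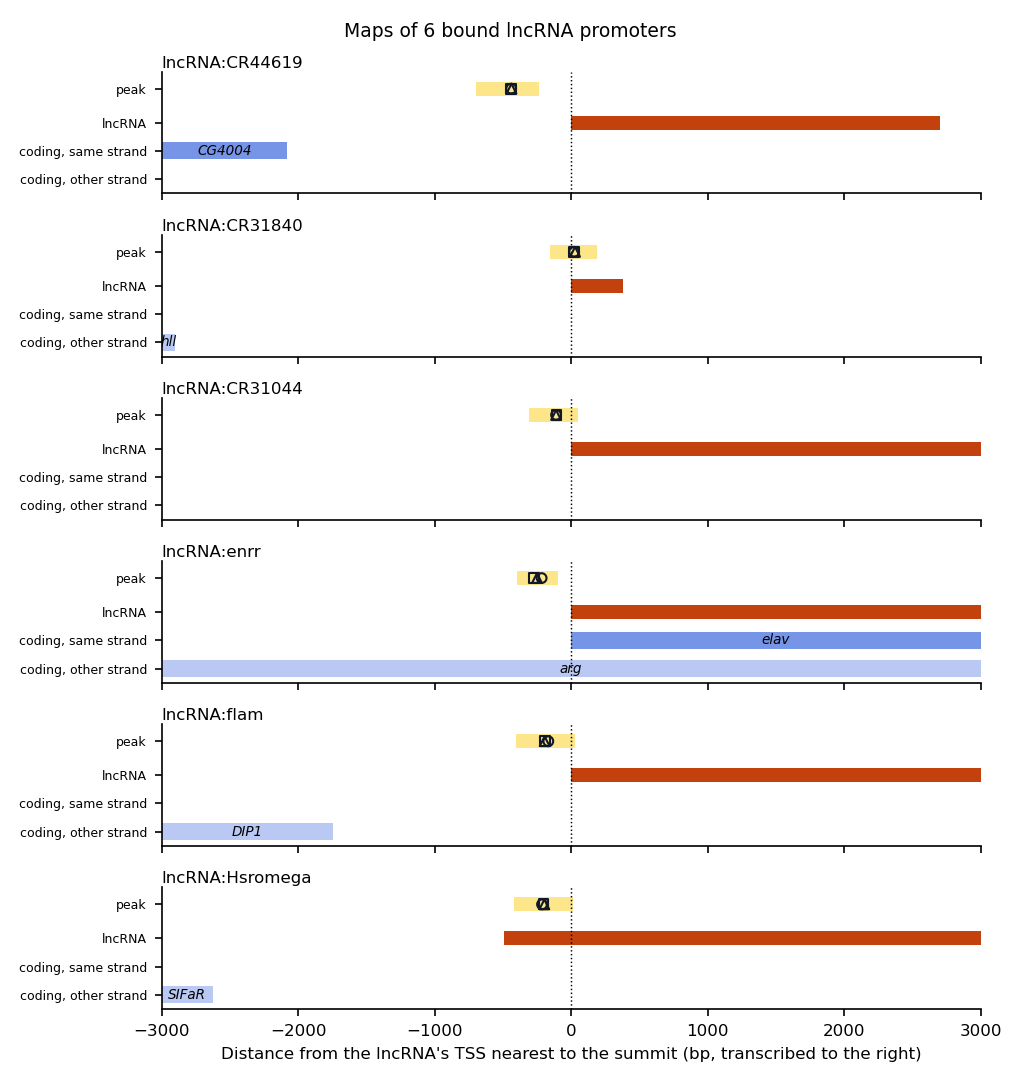
Maps of 6 bound promoters, each drawn from the lncRNA's TSS nearest to the summit (0, dotted) with transcription to the right. Yellow bars are pooled peaks with the summits of replicates 1 (circle), 2 (square) and 3 (triangle), orange bars the lncRNA genes, and blue bars coding genes on the same (darker) and the other strand (lighter), cut at 3000 bp. The summits of the replicates nearly coincide at lncRNA:CR44619, lncRNA:CR31840 and lncRNA:CR31044, and elav starts where lncRNA:enrr does.

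Of the 150 members, 4 contain an annotated miRNA on their own strand, and none of the 4 shared its summit with a coding TSS. lncRNA:CR31044, the sixth strongest member, holds mir-279 and mir-996, miRNAs with a shared seed that act in sensory neuron specification. lncRNA:CR43626 (chr3L:3249340-3254504) holds mir-282 and gave 3.79, 3.92 and 3.22. Its summit was inside the gene, 367 bp upstream of the nearest of its 3 start sites. lncRNA:CR43650 (chr2R:16829095-16839494) holds mir-8, the fly member of the miR-200 family, and gave 1.11, 1.29 and 2.18. Its summit was also inside the gene, 126 bp upstream of the nearer of its 2 start sites. The remaining host was lncRNA:Hsromega, which holds mir-4951. Among genes of the class with a relaxed summit that hold a small RNA, 4 of 21 were bound (19.0%, interval 7.67 to 40.0%), a share that cannot be told apart from the 24.6% of the class at this number. The 17 relaxed-only hosts include, named after their values were seen, lncRNA:CR43334 with bantam (mir-ban), at a signal of 103.5 close below the line. They also include lncRNA:CR44504, host of the mir-309 cluster of the early embryo, at 46.0.

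The members were also placed by their surroundings. Of the 150, 55 started inside a protein-coding gene in antisense direction only, 10 in sense direction only, 2 inside genes of both strands and 83 outside coding genes. The same counts for relaxed-only genes were 164, 35, 3 and 257 of 459, so antisense starts made up 36.7% of members and 35.7% of relaxed-only genes. Of the 4 strongest asRNA promoters, asRNA:CR45928 and asRNA:CR43257 shared their summits with eIF6 and Reg-5. asRNA:CR45281 gave 2.47, 2.76 and 2.33 with a summit 3950 bp from the nearest coding TSS, and asRNA:CR45908 gave 2.05, 2.26 and 2.02 with a summit 867 bp from the start of CG1943. Members were short, with a median gene length of 666 bp against 832 bp in relaxed-only genes and 719.5 bp in the annotated class, and 16 of 150 had more than 1 TSS.

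By arm, the bound shares were as follows. On arm 2R 42 of 127 genes of the class were bound (33.1%, interval 25.5 to 41.6%), close to the 32.1% of all genes there. On arm 3L the count was 22 of 129 (17.1%, 11.5 to 24.5%), beside 34.3% of all genes there. The shares were 26.7% on 2L, 21.4% on 3R and 28.2% on X, and none of 10 genes was bound on arm 4, with a Wilson interval of 0 to 27.8%, beside 5 of all 59 genes there (8.47%). All genes on 2L, 3R and X stood at 34.8%, 37.0% and 33.0%.

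The summits of members lay in AT-rich DNA. This measure was added after the data were seen and was not used to choose the members. Median GC content within 50 bp of the summit was 33.7% over the 149 distinct summits of the members and 43.6% over the 448 of the relaxed-only genes. Around the replicates' own summits it was 33.7%, 33.7% and 34.7% at the members (34.0 ± 0.572, SD, n = 3) and 42.6%, 42.6% and 45.5% at relaxed-only genes (43.6 ± 1.71). The same gap was seen at coding genes, 36.6% when bound and 44.6% when relaxed-only. Over all reproducible peaks the median was 34.7%, and over all pooled peaks, which include the reproducible ones, it was 42.6%. Members without a coding TSS had a median of 32.7% and shared ones 36.6%. GC content under 35% was found in 82 of 149 member windows (55.0%) and 118 of 448 relaxed-only windows (26.3%). How the authors' peak calling depends on GC content was not tested.

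The low GC content lay around the summit within the 500 bp examined on each side. At members without a coding TSS mean GC content in 51 bp was 33.9% at the summit, 46.1% at 200 bp to its left and 45.1% at 200 bp to its right. At 400 bp to the left and right it was 42.6% and 44.0%. At shared members it was 38.5% at the summit, lowest at 50 bp to its right (36.5%), and 42.6% and 44.9% at 200 bp. At relaxed-only genes without a coding TSS the values at the summit and at 200 bp were 43.6%, 43.5% and 43.9%, with no dip. The profile of GC content shows the trough at both kinds of member and at bound coding genes, where it was broader (37.1% at the summit, 42.0% and 41.9% at 200 bp).

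**Figure D5:**
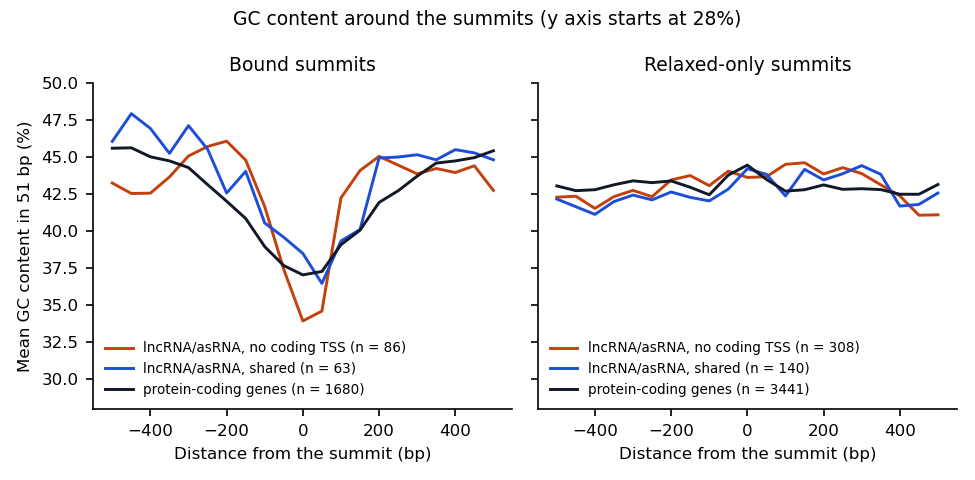
Mean GC content in 51 bp windows, in percent, against distance from the summit for bound (left) and relaxed-only (right) genes; left of 0 is toward lower coordinates. Lines are lncRNA and asRNA genes without (orange) and with (blue) a coding TSS and protein-coding genes (black), with the number of distinct summits. The bound sets dip around the summit, to 33.9% in members without a coding TSS, and the relaxed-only sets stay flat.

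The AT-rich 8-mers printed in capitals above were counted at all members. Any of the 10 ranked 8-mers was found in 49 of 149 member windows (32.9%, interval 25.9 to 40.8%) and in 62 of 448 relaxed-only windows (13.8%, 10.9 to 17.3%). The share was 29.4% over all reproducible peaks at promoters and 15% over all 23581 annotated start sites, whose windows lie at the TSS and not at a summit. Of the 3953 reproducible peaks, 3793 served to rank the 8-mers. The shares at promoter peaks are therefore not held out, as those of member and relaxed-only windows are. Such words are likelier in AT-rich sequence whatever is bound. Among windows under 35% GC, 43 of 82 member windows held one (52.4%, 41.8 to 62.9%) and 44 of 118 relaxed-only windows (37.3%, 29.1 to 46.3%). Above that limit it was 6 of 67 and 18 of 330. Of the 10, AAAAAATA was in the most member windows, 14 (9.40%), against 2.68% of relaxed-only windows and 5.94% of reproducible promoter peaks, and ATTTTAAA was in the fewest, 1.34% against 2.23% and 4.79%.

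Of 11 motifs of known promoter and early-embryo factors, looked for on both strands, few were frequent at the members. The TATA box word TATAAA, which can overlap the AT-rich 8-mers, was in 26 of 149 member windows (17.4%), 11.6% of relaxed-only windows, 16.7% of reproducible promoter peaks and 15% of all start sites. The initiator core TCAGT was in 18.1% and 20.8% of member and relaxed-only windows and in 30.1% of all start sites. CGATA, the core of the BEAF-32 motif, was in 15 member windows (10.1%), 11.8% of relaxed-only windows and 23.1% of reproducible promoter peaks. Its longer relative TATCGATA, the DNA replication-related element DRE, which contains CGATA, was in 3 member windows, all 3 shared with a coding TSS, and in 4.33% of reproducible promoter peaks. The M1BP motif GGTCACAC was in 1 member window (0.671%), against 1.56% of reproducible promoter peaks and 3.897% of all start sites. For the next words the shares are given in that same order. The GAGA factor repeat GAGAGAG was in 3 (2.01%, against 1.46% and 1.52%), and the GATA factor word TGATAAG in 5 (3.36%, against 2.02% and 1.54%). Of the E-box words, CAGCTG was in 7 member windows (4.698%, against 5.59% and 7.83%). The palindrome that MYC-type factors bind, CACGTG, was in 1 (0.671%, against 1.36% and 1.798%). The early-embryo factor Zelda has the word CAGGTAG, which was in 1 (0.671%, against 0.554% and 0.471%). From GGTCACAC to CAGGTAG, the interval of the member share includes both other shares for every word but GGTCACAC. There its upper bound, 3.703%, is below the share of all start sites. Of the earlier words, CGATA had an interval of 6.20 to 15.9%, below its 23.1% of promoter peaks and 21.4% of all start sites. That of TCAGT, 12.8 to 25.1%, was below its 30.1% of all start sites. Windows of all start sites lie at the TSS and the others at a summit, so those shares compare unlike positions. The AP-1 word, TGACTCA, was in none of the 149 member windows and in 0.907% of reproducible promoter peaks. A match is a word in the window and no evidence of a factor there, and a missing word says nothing about that factor.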

How the data were processed

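The authors deposited dm6 peak lists for each of the 3 replicates, for the pooled replicates and for an IDR (irreproducible discovery rate) set, with a signal value, a −log10 q value and a summit for each peak. Each relaxed list was derived from alignments and 1 further file that also enters a control-normalized signal, per the file headers of the sample records. The names and settings of the aligner and peak caller were not given in the sources used here.

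Genes and TSSs came from Ensembl release 115 (BDGP6.54, on dm6 coordinates), 18164 genes on 6 arms. All 150 members matched RefSeq by symbol, start and end, and 1 gene that the rule leaves out was not analysed here. A gene's best summit had the highest pooled signal within 500 bp of a TSS. The spread between replicates is an SD over 3 samples, and intervals are 95% Wilson intervals. The 8-mers were ranked on 3793 reproducible windows against 17395 relaxed ones, all away from the class. Gene placement and 8-mer ranking were tested on simulated data.

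Named in the text are the 20 members with the best mean rank, the 10 best near TSSs of the class only, named lncRNAs with a relaxed summit, small-RNA hosts, genes next to the threshold, the 4 best asRNA genes, the most and least variable of the 20, and some others as stated. Members and lists were chosen with earlier results of these data known. GC content, with its alternatives, and the grouping of genes by number of TSSs were added after seeing the data. Python 3.11.15, numpy 2.4.6, pandas 2.3.3 and matplotlib 3.10.9 were used.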

Additional observations from a re-analysis of the deposited data

How the results depend on the processing

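The number of bound genes, 150, became 60 with a TSS window of 200 bp, 245 with 1000 bp and 81 with the peaks at or above the median signal, where the bound share fell to 13.3%. Each replicate was also left out in turn, keeping peaks that the 3953 strongest of the other 2 shared within 100 bp. This stricter set left 105 to 114 genes and a share of 17.2 to 18.7%. A stricter set of peaks can lower the share of any gene group. The share of all genes under these settings was not set beside these, so whether the class stayed below it was not tested. The share of members with a coding TSS moved to 31.7% (200 bp) and 51.8% (1000 bp), and that of relaxed-only genes to 18.9% and 40.9%, and to 25.9% with the farthest upstream TSS. Under each of these windows it was higher at members. The median summit position of the members was −9 bp (200 bp), 56 bp (1000 bp), −102 bp (stronger peaks), −7 bp (farthest upstream TSS), −11 bp (any base of the peak), −64.5 bp (class by biotype) and −97 to −45.5 bp with a replicate left out. That of relaxed-only genes was 20.5 bp with any base of the peak, so neither sign is stable. Median relative signal was 0.956 with replicate summits within 50 bp and 1.01 after division by the promoter median. Median GC content of members was 35.3% with 100 bp on each side of the summit and 32.7% without shared summits. Of 126 alternatives for single motifs and 8-mers 52 moved the share, 24 of them with longer windows and 27 with shorter ones, which hold more or fewer words by their length. No paired analysis was possible because the samples form a single group. Precision is limited by unknown read depth, by 3 replicates and by the absence of a control compared here.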
